A study of Mus musculus with 6 samples.

Results

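The astrocyte-like tumor nuclei were 609 of the 10379 barcodes of the Foxr2 p53LOF library, and of the 22125 barcodes in the 3 libraries of the series. They were chosen by RNA alone. A nucleus needed at least 1000 UMIs (unique molecular identifiers, which count RNA molecules), at most 5% of them mitochondrial, and at least 2 UMIs of Hmga2, a chromatin protein of the embryo. It also needed a sum over Egfr, Rfx4, Dbx2 and Abcc12 of at least 5 UMIs and no smaller than the sum over Enpp6, 9630013A20Rik, Bcas1, Gpr17 and Moxd1, genes of oligodendrocyte precursors on their way to myelination. Nuclei with 0.2% or more of their UMIs in Dock2, Ptprc, Inpp5d, Apbb1ip and Csf1r (immune genes), or with more than 1 UMI of the cell cycle genes Mki67 and Top2a, were left out. The steps kept 9994 barcodes for UMIs, 9911 for mitochondrial share, 1940 for Hmga2, 1103 and 884 for the marker sums, 827 for the immune genes and 609 for the cell cycle genes. In Foxr2 alone replicate 1 the same rule found 0 of 10096 barcodes, where 1 nucleus passed the Hmga2 step. The levels of these genes in the chosen nuclei, and those of genes that move with them, are therefore descriptions.

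The nuclei came from frozen brain tissue of C57BL/6J mice with lesions made by in utero electroporation of the ganglionic eminences of embryos. Both genotypes carried FOXR2 overexpression from a piggyBac transposon with the broad CAG promoter, with GFP and the luciferase Akaluc, and Foxr2 p53LOF also received Cas9 with a guide against p53. Any cell that took up the plasmids could be changed, and the number of animals behind a library is not given in the sources used here. RNA and open chromatin (ATAC-seq) were read from the same nuclei in 1 library of Foxr2 p53LOF and 2 of Foxr2 alone, of which replicate 2 gave barcodes only and its counts were not analysed here. With 1 library of counts per genotype there are no replicates, so no test was made and every interval, at 95%, covers counting error only.

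Astrocytes take up glutamate, buffer potassium and are coupled through gap junctions. They arise from radial glia, the stem cells of the embryonic brain, under transcription factors of the NFI and SOX families, and oligodendrocytes arise through precursors that switch on Sox10. Egfr, the receptor of epidermal growth factor, is used by neural stem cells and glial progenitors and is often overactive in glioma. Rfx4 and Dbx2 are transcription factors of neural progenitors and astrocytes, Sulf1 removes sulfate groups from heparan sulfate outside the cell, and Abcc12 is an ABC transporter.

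RNA levels are in CPM. For this the UMIs of a gene were added up over the nuclei of a class and scaled to a class total of 1000000. The main comparator was 408 OPC-like tumor nuclei (oligodendrocyte precursor-like) of the same library, chosen by the same rule with the 2 marker sums in the opposite order. The second was 177 nuclei of the library with 0 UMIs of Hmga2 and at least 3 UMIs of Aqp4, Gja1, Ntsr2 and Slc7a10, called Hmga2-negative astrocyte-marker nuclei. They were not free of the vectors, with 579 CPM of GFP, and 157 nuclei of Foxr2 alone met the same rule with 137 CPM. The 9302 other barcodes of sufficient quality and, as a stand-in for the background of free RNA, 1194 immune nuclei stood beside them. The immune nuclei were chosen with 0 UMIs of Hmga2, so free tumor RNA may be low in them by choice. The astrocyte-like nuclei had a median of 9317 UMIs (range 2052 to 73116) and 10486 ATAC counts in peaks. The medians were 13297 and 14545 in the OPC-like nuclei, 5412 and 6111 in the astrocyte-marker nuclei and 2666 and 5379.5 in the immune nuclei. The median mitochondrial share was 0.0582% in the astrocyte-like and 0.319% in the OPC-like nuclei. Of the 609 barcodes, 7 also occurred in the list of Foxr2 alone replicate 1 and 4 in that of replicate 2. Scrublet marked 38 of the 609 (6.24%) as doublets, against 3.92% of the OPC-like and 3.95% of the astrocyte-marker nuclei, and these were kept.

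Trp53, the gene under the guide, was at 55.8 CPM in the astrocyte-like nuclei, 47.2 CPM in the OPC-like nuclei and 15.4 CPM in the astrocyte-marker nuclei of Foxr2 alone. An RNA level does not show whether the gene was cut. Cas9 and the guide each had 0 UMIs in the astrocyte-like nuclei, which allows up to 0.508 CPM.

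Egfr stood at 736 CPM (95% interval 716 to 756) in the astrocyte-like nuclei. It was at 38.4 CPM in the OPC-like nuclei, 345 CPM in the astrocyte-marker nuclei, 6.58 CPM in the immune nuclei and 105 CPM over the other barcodes. That is 19.1-fold (16.95 to 21.7) above the OPC-like and 2.13-fold (1.93 to 2.37) above the astrocyte-marker nuclei. Rfx4 was at 986, 137 and 517 CPM in the astrocyte-like, OPC-like and astrocyte-marker nuclei, Dbx2 at 241, 18.2 and 122 CPM, and Abcc12 at 165, 11.9 and 71.1 CPM. These 4 genes chose the nuclei. The other pair of marker genes given with the rule, Six3os1 and Sulf1, did not enter it. Six3os1, a noncoding RNA beside the eye-field factor Six3, was at 264 CPM against 19.2 and 190 CPM, 13.7-fold (11.5 to 16.5) above the OPC-like nuclei. Sulf1 was at 1174 CPM against 176 and 718 CPM, 6.66-fold (6.28 to 7.08) above the OPC-like nuclei. All 6 markers were highest in the astrocyte-like nuclei among these classes, and the astrocyte-marker nuclei came second for each.

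The markers were spread over the nuclei. All 6 were found in 33.99% of the 609 nuclei, 5 in 31.03%, 4 in 18.6% and 3 or fewer in the rest. The median nucleus had 5.48 UMIs of Egfr per 10000 UMIs, with a 5th to 95th percentile of 0 to 26.6, and 9.84 of Sulf1 (0 to 34.04). To compare classes of unequal depth each nucleus was thinned to 1000 UMIs. Egfr then had a UMI in 44.7% (91.6% before thinning) of the astrocyte-like, 1.72% (15.7% before thinning) of the OPC-like, 27.1% (69.5% before thinning) of the astrocyte-marker and 0.503% (1.76% before thinning) of the immune nuclei. For Sulf1 the shares were 59.3% (91.95% before thinning), 9.31% (35.5% before thinning), 31.1% (56.5% before thinning) and 1.59% (4.19% before thinning). Both genes stood above the immune level in all 3 glial classes, and most widely in the astrocyte-like nuclei.

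**Figure D1:**
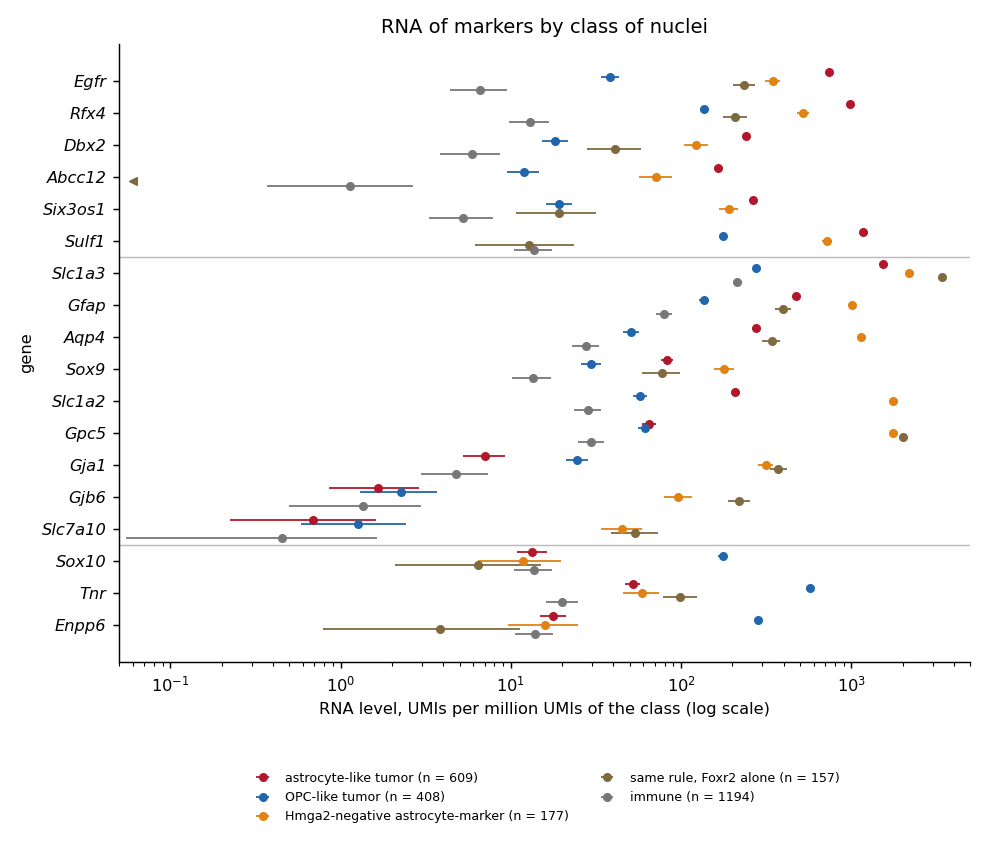
RNA level of 18 genes (CPM, log axis) in the astrocyte-like tumor nuclei, the comparator classes of the Foxr2 p53LOF library and the astrocyte-marker nuclei of Foxr2 alone, with 95% counting intervals and triangles for 0 counts. Egfr and Sulf1 are highest in the astrocyte-like nuclei, at 736 and 1174 CPM, Sox10 in the OPC-like nuclei at 175 CPM, and Gja1 is near the immune level.

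The values just inside and just outside the thresholds are given here as a description. The 72 nuclei with exactly 2 UMIs of Hmga2 had 295 CPM of Six3os1 and 2007 CPM of Slc1a3, and 25% had ATAC counts on the vectors. The 130 nuclei that failed only by having 1 UMI of Hmga2 had 261 CPM, 1855 CPM and 26.2%, and the 186 with 0 UMIs had 184 CPM, 1625 CPM and 24.2%. The 25 nuclei at a marker sum of 5 had 168 CPM of Six3os1, and the 31 at a sum of 4 had 111 CPM. The cap on Mki67 and Top2a left out 218 nuclei, which had 155 CPM of Six3os1 and vector ATAC in 42.7%, against 244 CPM and 33.8% in the 139 nuclei with 1 such UMI. The 30 nuclei with 0.1% to 0.2% of their UMIs in the immune genes had 217 CPM of Six3os1, and the 11 with 0.2% to 0.3% had 291 CPM.

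The chromatin at these genes, which the rule did not use, was more open in the astrocyte-like than in the OPC-like nuclei. ATAC counts were summed over the peaks within 2 kb of the start sites of a gene and given as CPM of the ATAC counts of a class. Egfr, which spans chr11:16752203-16918158 on the plus strand of mm10, had 22.9 CPM in the astrocyte-like, 4.98 CPM in the OPC-like, 16.3 CPM in the astrocyte-marker and 0.488 CPM in the immune nuclei, 4.61-fold (3.22 to 6.74) above the OPC-like nuclei. Abcc12, which spans chr8:86482260-86580686 on the minus strand, had 30.8, 5.76, 13.8 and 1.34 CPM in the same order, 5.35-fold (3.86 to 7.57) above the OPC-like and 2.23-fold (1.36 to 3.89) above the astrocyte-marker nuclei. Rfx4 had 175 CPM against 77.5 CPM in the OPC-like nuclei, Dbx2 25.8 against 8.77 CPM, and Sulf1 46.6 against 20.7 CPM. Six3os1 had 69.2 against 24.5 CPM, and its interval also takes in the start site of Six3. All 6 start sites passed 2-fold against the OPC-like nuclei, where 1.77% of 13045 start sites with at least 20 CPM did so (a log2 ratio of CPM + 1 of at least 1), and 1.38% were lower past 2-fold. Egfr, Dbx2 and Abcc12 reached 20 CPM in the astrocyte-like but not the OPC-like nuclei, so the minimum in part sets this count. The RNA of Egfr, Rfx4, Dbx2 and Abcc12 chose the classes. Only Abcc12 of the 6 passed against the astrocyte-marker nuclei, where 2.38% of 13050 start sites were higher and 2.57% lower. The median log2 ratio over the 6 was 1.46 against the OPC-like and 0.46 against the astrocyte-marker nuclei, where all start sites tested had medians of 0.07 and -0.11.

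**Figure D2:**
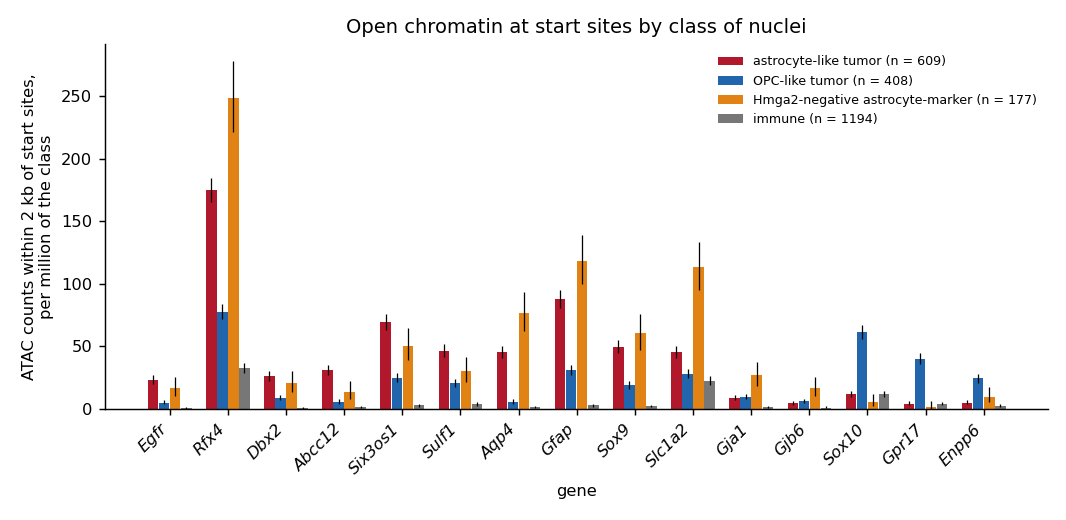
ATAC counts within 2 kb of the start sites of 15 genes (bars, CPM, axis from 0) in 4 classes of nuclei of the Foxr2 p53LOF library, with 95% counting intervals. The astrocyte-like nuclei are above the OPC-like nuclei at Egfr (22.9 against 4.98 CPM) and Aqp4 (45.2 against 5.76 CPM) and below them at Sox10 (11.6 against 61.03 CPM).

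Single peaks inside these genes differed as well. Shown are the middle 300 bases of the peak with the highest log2 ratio of CPM + 1 over the OPC-like nuclei at each of the 6 marker genes, on the plus strand of mm10 (GRCm38.p6, from RefSeq), with every match to the short motif of NFI factors (TTGGCA, or TGCCAA on the other strand) in capitals. The Egfr and Rfx4 peaks hold 1 match each and the other 4 hold none.

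Egfr intron, chr11:16831988-16832287: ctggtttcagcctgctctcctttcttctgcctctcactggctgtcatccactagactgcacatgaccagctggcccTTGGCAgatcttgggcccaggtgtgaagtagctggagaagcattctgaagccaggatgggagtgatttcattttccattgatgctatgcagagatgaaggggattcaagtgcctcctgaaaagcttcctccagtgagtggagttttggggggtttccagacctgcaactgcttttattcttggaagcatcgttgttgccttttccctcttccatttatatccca

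Rfx4 intron, chr10:84810418-84810717: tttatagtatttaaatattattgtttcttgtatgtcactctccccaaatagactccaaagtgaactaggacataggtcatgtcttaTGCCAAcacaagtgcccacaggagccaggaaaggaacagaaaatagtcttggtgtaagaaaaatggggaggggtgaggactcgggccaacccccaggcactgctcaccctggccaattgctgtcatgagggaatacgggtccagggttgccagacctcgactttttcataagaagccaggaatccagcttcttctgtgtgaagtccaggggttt

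Dbx2 intron, chr15:95645703-95646002: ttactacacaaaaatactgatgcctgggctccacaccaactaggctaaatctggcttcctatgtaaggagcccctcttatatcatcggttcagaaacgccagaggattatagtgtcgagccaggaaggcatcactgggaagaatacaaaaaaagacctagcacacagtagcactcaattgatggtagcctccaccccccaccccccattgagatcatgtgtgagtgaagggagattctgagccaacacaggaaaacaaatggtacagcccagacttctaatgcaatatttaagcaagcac

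Abcc12 intron, chr8:86574099-86574398: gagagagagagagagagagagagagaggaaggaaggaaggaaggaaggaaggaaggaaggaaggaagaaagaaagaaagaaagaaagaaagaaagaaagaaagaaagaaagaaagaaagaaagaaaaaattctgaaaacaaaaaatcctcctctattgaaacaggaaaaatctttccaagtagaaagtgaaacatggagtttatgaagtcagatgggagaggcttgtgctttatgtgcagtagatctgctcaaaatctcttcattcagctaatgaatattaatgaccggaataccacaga

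Six3os1 exon, chr17:85618170-85618469: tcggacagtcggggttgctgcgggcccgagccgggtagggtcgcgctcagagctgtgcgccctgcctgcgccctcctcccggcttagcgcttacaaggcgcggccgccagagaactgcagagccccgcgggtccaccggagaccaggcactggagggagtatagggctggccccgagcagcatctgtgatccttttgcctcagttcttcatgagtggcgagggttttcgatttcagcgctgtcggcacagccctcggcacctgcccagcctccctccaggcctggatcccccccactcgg

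Sulf1 intron, chr1:12771449-12771748: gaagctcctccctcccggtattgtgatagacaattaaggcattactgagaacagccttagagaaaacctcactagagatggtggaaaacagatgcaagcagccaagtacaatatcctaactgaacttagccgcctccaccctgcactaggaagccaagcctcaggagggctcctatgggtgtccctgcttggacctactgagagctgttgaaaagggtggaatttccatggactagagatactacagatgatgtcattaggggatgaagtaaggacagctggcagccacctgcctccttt

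The Egfr peak held 164 counts in the astrocyte-like, 30 in the OPC-like, 16 in the astrocyte-marker and 0 in the immune nuclei, which is 22.7, 3.93, 13.02 and 0 CPM. The Rfx4 peak was at 24.5, 1.57, 34.2 and 1.10 CPM, with few counts in the OPC-like nuclei. The Dbx2 peak was at 12.2, 0.917, 5.70 and 0.488 CPM and the Abcc12 peak at 10.2, 0.524, 3.25 and 0.244 CPM, with 7 and 4 counts in the OPC-like nuclei. The Six3os1 peak was at 29.9, 8.64, 15.5 and 0.855 CPM and the Sulf1 peak at 34.5, 5.11, 16.3 and 0.244 CPM. Of the peaks with at least 10 CPM in the gene body or within 2 kb of it, 4 of 5 at Egfr, 4 of 5 at Abcc12, 5 of 11 at Rfx4, 2 of 2 at Dbx2, 3 of 3 at Six3os1 and 5 of 6 at Sulf1 were past 2-fold higher than in the OPC-like nuclei. At Rfx4, 2 peaks were past 2-fold lower. The peaks shown reached 10 CPM in the astrocyte-like but not the OPC-like nuclei, so the minimum leans these counts toward higher. None of 6 peaks at Egfr passed against the astrocyte-marker nuclei in either direction, nor did any of 3 at Dbx2 and 3 at Six3os1, while 3 of 5 at Abcc12 and 3 of 6 at Sulf1 were higher, and of 11 at Rfx4 1 was higher and 2 lower. Over all peaks, 12.5% of 34218 were higher and 12.4% lower than in the OPC-like nuclei, and 12.9% of 32035 were higher and 10.9% lower than in the astrocyte-marker nuclei.

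Against the OPC-like tumor nuclei the astrocyte-like nuclei carried more RNA of most astrocyte identity genes, gliogenic transcription factors and glial channels and transporters, and less of committed and mature oligodendrocyte genes. Of 10395 genes with at least 10 CPM in either class, 897 (8.63%) were past 2-fold higher and 773 (7.44%) past 2-fold lower, with a median log2 ratio of -0.09. The RNA rule sets this contrast, so the counts describe it. Grm5, the metabotropic glutamate receptor mGluR5 of immature astrocytes and neurons, was at 2149 against 162 CPM, 13.3-fold (12.5 to 14.1) higher, and Adgrv1, a very large adhesion receptor, at 1207 against 121 CPM. Other genes high in the list were Ttll8, a tubulin glycylase (80.9 against 5.09 CPM), Shroom3, which shapes the apical side of epithelia (215 against 18.7 CPM), the ligand Wnt5b (90.8 against 9.04 CPM) and Emid1 (31.1 against 1.70 CPM). Pomc, the precursor of melanocortin peptides, was at 770.1 against 81.7 CPM, and at 148 CPM in the immune nuclei and 1225 CPM in the astrocyte-marker nuclei. Lower in the list, Sel1l3, Palmd and Eepd1, were at 72.6, 29.8 and 85.3 CPM against 7.07, 2.40 and 8.76 CPM.

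Grm5 was 3.14-fold (2.93 to 3.37) above the astrocyte-marker nuclei, which had 685 CPM. The start sites of Grm5 had 25.6 CPM of ATAC counts against 8.25 in the OPC-like and 6.51 in the astrocyte-marker nuclei.

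The astrocyte identity genes stood between the OPC-like and the astrocyte-marker nuclei. Of 18 genes in the list, 16 had enough RNA for the first comparison, with 11 past 2-fold higher and 2 lower, and a median log2 ratio of 1.90. The 2 lower genes were Gja1 and S100b, a calcium-binding protein also found in oligodendrocyte precursors, at 11.9 against 33.9 CPM. For the second, 15 of 18 were past 2-fold lower and none higher, with a median of -2.35 against 0.03 over all 10613 genes, of which 558 (5.26%) were higher and 891 (8.4%) lower. Aqp4, Gja1, Ntsr2 and Slc7a10 are among the 15, and these 4 chose the comparator. Summed over the list, the RNA was 3456 CPM in the astrocyte-like, 922 CPM in the OPC-like, 12331 CPM in the astrocyte-marker and 597 CPM in the immune nuclei, and 16730.3 CPM in the astrocyte-marker nuclei of Foxr2 alone.

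The members of this list were split. Slc1a3, the glutamate transporter GLAST of radial glia and astrocytes, was at 1539 CPM, with 275 CPM in the OPC-like and 2186 CPM in the astrocyte-marker nuclei. Aldh1l1, a folate enzyme used as an astrocyte marker, was at 256, 54.97 and 324 CPM. Both were past 2-fold above the OPC-like nuclei and within 2-fold of the astrocyte-marker nuclei. Gfap, the intermediate filament of astrocytes, stood between the classes at 471, 136 and 1007 CPM, as did the water channel Aqp4 at 276, 50.9 and 1138 CPM and the receptor Fgfr3 at 50.02, 11.02 and 155 CPM. Against the astrocyte-marker nuclei of Foxr2 alone Gfap was within 2-fold. Slc1a2, the glutamate transporter GLT-1 of mature astrocytes, was at 207, 57.4 and 1745 CPM, 8.43-fold (7.89 to 9.02) below the astrocyte-marker nuclei, and the bicarbonate transporter Slc4a4 at 191, 37.02 and 1489 CPM.

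The gap junction genes were near the level of the immune nuclei. Gja1, connexin 43, had 7.03 CPM in the astrocyte-like nuclei, 24.6 CPM in the OPC-like, 315 CPM in the astrocyte-marker and 4.77 CPM in the immune nuclei. Gjb6, connexin 30, had 1.65, 2.26, 96.3 and 1.36 CPM. The amino acid transporter Slc7a10 had 0.689 CPM against 45.2 CPM in the astrocyte-marker nuclei, and Etnppl, an enzyme of phosphoethanolamine breakdown found in astrocytes, 3.996 against 228 CPM, 56.97-fold (38.8 to 86.7) lower. Other genes among the lowest were the protease inhibitor A2m (23.2 against 557 CPM), the Rac activator Prex2 (24.7 against 727 CPM), the growth factor Pdgfd (8.13 against 272 CPM), the proteoglycan Gpc5 (64.8 against 1759 CPM), Fam107a (0.965 against 44.4 CPM) and Eva1a (1.38 against 49.4 CPM). After thinning, Gja1 had a UMI in 0.657% (5.09% before thinning) of the astrocyte-like nuclei, 0.503% (1.42% before thinning) of the immune nuclei and 33.3% (61.02% before thinning) of the astrocyte-marker nuclei. Against the OPC-like nuclei 11 of 16 genes of the identity list were thus higher and 2 lower. The RNA rule sets that contrast, so this count does not test the label astrocyte-like. Against the astrocyte-marker nuclei 15 of 18 were lower, Gfap, Aqp4, Slc1a2, Slc4a4 and Gpc5 among them. Gjb6 and Slc7a10 were at the level of the immune nuclei and Gja1 and Etnppl close to it.

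The start sites showed a like order. Aqp4 had 45.2 CPM of ATAC counts in the astrocyte-like nuclei, 5.76 in the OPC-like and 76.5 in the astrocyte-marker nuclei, 7.84-fold (5.71 to 11) above the OPC-like nuclei. Gfap had 87.6, 30.9 and 118 CPM and Sox9 49.6, 19.1 and 60.2 CPM. Slc1a2 had 45.2, 28.03 and 113 CPM, Slc4a4 81.8, 48.5 and 171 CPM, and Gja1 8.84, 9.56 and 26.9 CPM. Of the astrocyte identity genes, 6 of 10 start sites were past 2-fold above the OPC-like nuclei and none below, and 6 of 14 were past 2-fold below the astrocyte-marker nuclei and none above.

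Genes of committed and mature oligodendrocytes were mostly lower in RNA than in the OPC-like nuclei, and some were lower in chromatin. Of the committed oligodendrocyte precursor list, part of which chose the classes, 9 of 11 genes were past 2-fold lower than in the OPC-like nuclei and none higher (median log2 ratio -3.01), and of the mature oligodendrocyte list 8 of 11 were lower and none higher (-1.91). Sox10, the factor that commits cells to the oligodendrocyte lineage and did not enter the rule, was at 13.4 CPM against 175 CPM, and at 13.6 CPM in the immune nuclei. Its start sites had 11.6 CPM of ATAC counts against 61.03 CPM, and 11.5 CPM in the immune nuclei. The astrocyte-like nuclei were at the immune level for Sox10 in both readouts. At the peak over its start site they had 5.11 CPM, the immune nuclei 7.20 CPM and the astrocyte-marker nuclei 0.814 CPM (1 count). The immune level was thus not the lowest, and it does not show that the site was closed. Tnr, a matrix protein of oligodendrocyte precursors, was at 51.95 against 571 CPM, the integrin-like Itgbl1 at 2.20 against 53.7 CPM, the growth factor Igf1 at 16.8 against 253 CPM, and Bmp4, a signal of the BMP pathway, at 2.07 against 33.3 CPM. The others among the 10 lowest were the collagen Col20a1 (1.79 against 38.4 CPM), the peptide Ucn2 (1.93 against 36.7 CPM), the kinase Srpk3 (2.62 against 42.3 CPM) and the motor protein Myo5b (20.8 against 226 CPM). Enpp6, a choline phosphodiesterase of newly forming oligodendrocytes used in the rule, was at 17.8 against 283 CPM, and its start sites at 4.98 against 24.4 CPM. At the start sites, 2 of 7 genes of the committed list, 2 of 4 of the mature list and 2 of 10 of the early precursor list were past 2-fold lower and none higher. Over all features tested, 1.38% of 13045 start sites and 7.44% of 10395 genes were lower. All 5 peaks tested at Enpp6, 2 of 2 at Sox10 and 2 of 2 at Gpr17 were past 2-fold lower. None of these peaks reached 10 CPM in the astrocyte-like nuclei, so the minimum leans this count toward lower. Gpr17, like Enpp6, entered the rule.

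The early oligodendrocyte precursor list was mixed, with 1 of 11 genes past 2-fold higher and 5 lower. Pdgfra, the receptor that drives precursor division, was at 141 CPM in the astrocyte-like and 169 CPM in the OPC-like nuclei. Olig2, a factor of the whole lineage, was at 45.6 and 30.5 CPM, both within 2-fold, and at 16.7 CPM in the astrocyte-marker nuclei. The proteoglycan Cspg4 was lower, at 3.31 against 26 CPM. The phosphatase Ptprz1, shared by radial glia and precursors, was higher, at 4466 against 710.1 CPM. Summed over the list the RNA was 5476 CPM in the astrocyte-like and 2727 CPM in the OPC-like nuclei, an order set by Ptprz1 alone, since the sum of the other genes was lower in the astrocyte-like nuclei.

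Transcription factors of gliogenesis were higher than in the OPC-like nuclei for 11 of 16 genes and lower for 1, with a median log2 ratio of 1.26. The list includes Rfx4, which entered the rule. Against the astrocyte-marker nuclei 2 of 16 were higher and 3 lower (0.08). Nfia, which starts the switch from neurons to glia, was at 2399.9 CPM in the astrocyte-like, 551 in the OPC-like and 1886 in the astrocyte-marker nuclei. Its relative Nfib was at 1531, 256 and 1094 CPM, and Nfix at 179.7, 71.5 and 203 CPM. Nfic, looked at after its values were seen, was the exception in this family, at 22.6, 35.6 and 28.5 CPM, within 2-fold. Zbtb20, a factor of astrocyte formation, was at 1720.3, 559.7 and 2104 CPM and Npas3 at 4228, 666 and 3347 CPM. Sox9, a factor of radial glia and astrocytes, was 2.78-fold (2.37 to 3.27) above the OPC-like and 2.18-fold (1.86 to 2.55) below the astrocyte-marker nuclei, at 82.1 CPM. Against the astrocyte-marker nuclei of Foxr2 alone Sox9 was within 2-fold.

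Of the radial glia and neural stem cell list, 10 of 16 genes were past 2-fold above the OPC-like nuclei and none below, and against the astrocyte-marker nuclei 1 of 18 was above and 3 below. Pax6, Gli2 and Gli3 reached 10 CPM in the astrocyte-like but not the OPC-like nuclei. The count of 10 is therefore in part set by the minimum. The eye and forebrain factor Pax6 was at 62.4, 9.33 and 78.7 CPM in the astrocyte-like, OPC-like and astrocyte-marker nuclei, the fatty acid binding protein Fabp7 at 163, 64.7 and 271 CPM, and Lrig1, which restrains ErbB receptors, at 422, 47.8 and 543 CPM. The matrix protein tenascin C, Tnc, had another order. It was at 1029 CPM in the astrocyte-like and 1095 CPM in the OPC-like nuclei, and at 144 CPM in the astrocyte-marker nuclei, 7.15-fold (6.15 to 8.37) lower. Gli2 and Gli3, factors of the Hedgehog pathway in radial glia, were at 15.3 and 18.9 CPM in the astrocyte-like nuclei, above the OPC-like (3.67 and 6.92 CPM) and below the astrocyte-marker nuclei (73.7 and 92.9 CPM). Nes, Sox2, Vim and Cdh2 were within 2-fold in both comparisons.

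Of the 21 regional patterning factors, 5 had enough RNA for the comparison with the OPC-like nuclei, and Pax6 and Zic1 reached 10 CPM only in the astrocyte-like nuclei, so that the count of 5 past 2-fold higher is in part set by the minimum. Against the astrocyte-marker nuclei none of 6 was higher and 1 was lower. Meis2, a factor of the lateral ganglionic eminence and olfactory bulb lineages among others, was at 677 against 128 CPM, Six3 at 97.3 against 24.2 CPM and Zic1 at 44.2 against 9.33 CPM. The start sites of Zic1 had 37.6 against 15.3 CPM of ATAC counts.

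The genes of the EGFR pathway were mixed. Of 19 genes of EGFR and ErbB signaling, 7 were past 2-fold higher and 4 lower than in the OPC-like nuclei (median log2 ratio 0.26). Of 17 tested against the astrocyte-marker nuclei 9 were higher and none lower (1.09). Egfr, which entered the rule, is among the higher genes in both counts. Among the ligands, Hbegf was at 126 CPM against 30.5 in the OPC-like and 46.04 in the astrocyte-marker nuclei, and Ereg at 16.95, 5.23 and 3.35 CPM. Areg had the other order, at 26.2 CPM in the astrocyte-like and 84.8 CPM in the OPC-like nuclei, with 5.02 CPM in the astrocyte-marker nuclei. Among the receptors, Erbb4 was at 3407, 652 and 3192 CPM and Erbb3 at 7.44, 64.9 and 2.51 CPM, higher and lower than in the OPC-like nuclei respectively. Erbb2 was at 0.413 CPM. Among the inhibitors in the list, Spry1, Spry2, Spry4 and Dusp6 were past 2-fold higher than in the astrocyte-marker nuclei, while Lrig1 and Errfi1 were within 2-fold. Spry1 was at 20.8 against 5.86 CPM, Spry2 at 105 against 48.5 CPM, Spry4 at 36.4 against 10.04 CPM and the ERK phosphatase Dusp6 at 61.5 against 23.4 CPM. In the OPC-like nuclei Spry2, Spry4 and Dusp6 were at 87.5, 31.2 and 69.7 CPM, within 2-fold of the astrocyte-like nuclei. At the start sites, 1 of 15 genes of the list, Egfr itself, was past 2-fold above the OPC-like nuclei, and none of 13 differed past 2-fold from the astrocyte-marker nuclei.

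Over all genes tested, 8.63% were higher and 7.44% lower than in the OPC-like nuclei. Against the astrocyte-marker nuclei the shares were 5.26% and 8.4%. The counts that follow are against the OPC-like nuclei unless another class is named. In the Hedgehog and Wnt list 7 of 12 genes were higher and none lower (1.29), with the Wnt inhibitor Nkd1 at 52.9 against 8.34 CPM and the ligand Wnt5a at 35.8 against 5.51 CPM. Against the astrocyte-marker nuclei 2 of 12 were higher and 3 lower. In the Notch list 5 of 10 were higher and none lower (1.02), with the receptor Notch3 at 23.98 against 5.09 CPM and the sugar transferase Lfng at 49.1 against 8.34 CPM. Against the astrocyte-marker nuclei 1 of 12 was higher and 2 lower. Of the channels and transporters of glia 10 of 16 were higher and none lower, among them the potassium channel Kcnd2 at 3333 against 483 CPM and the GABA transporter Slc6a11 at 68.9 against 7.35 CPM. Relative to the astrocyte-marker nuclei 7 of these 16 were lower and 2 higher. This list includes Abcc12, which entered the rule. In the BMP and heparan sulfate list 7 of 18 were higher and 2 lower (0.83), in the FGF and PDGF list 4 of 11 and 2, in the ETS list 3 of 12 and 2, in the matrix list 3 of 16 and 1, and in the mesenchymal-like and reactive list 5 of 13 and 3. In the cell cycle list, where the rule capped Mki67 and Top2a, 1 of 10 genes was higher and none lower, and of the hypoxia genes 2 of 10 were lower and none higher. The share of higher genes in the cell cycle list (10%) and of lower genes in the matrix list (6.25%) were near those over all genes. Of the oncofetal genes, which include Hmga2, 1 of 6 was higher and 1 lower. Igf2bp2, an RNA-binding protein of the embryo, was the lower gene, at 57.7 against 270.2 CPM. Its relative Igf2bp3 was within 2-fold, at 197 against 119.8 CPM.

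Summed over their list, interferon genes had more RNA in each Foxr2 p53LOF class given here than in the astrocyte-marker nuclei of Foxr2 alone. None of 15 genes of interferon response and antigen presentation passed 2-fold against the OPC-like nuclei in either direction (median log2 ratio 0.54), and 2, Irf1 and Nlrc5, were higher than in the astrocyte-marker nuclei. Summed over the list the RNA was 6427 CPM in the astrocyte-like, 4741 in the OPC-like, 4877 in the astrocyte-marker and 4754 in the immune nuclei, and 322 CPM in the astrocyte-marker nuclei of Foxr2 alone. The guanylate-binding protein Gbp2 was at 1281 CPM in the astrocyte-like nuclei, 230.2 CPM in the immune nuclei and 3.84 CPM in the astrocyte-marker nuclei of Foxr2 alone, and the GTPase Iigp1 at 1183, 376 and 1.28 CPM. Both were higher in the astrocyte-like than in the immune nuclei.

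Markers of immune cells were low, and those of neurons and ependymal cells stood above the immune nuclei. All 13 microglia and macrophage genes were at or below their level in the immune nuclei, with a sum of 437 CPM against 11722 CPM and 370.2 CPM in the OPC-like nuclei. Dock2, Ptprc, Inpp5d, Apbb1ip and Csf1r are in this list and chose these classes, so their order was fixed by the choice. The 8 T and NK lymphocyte genes summed to 16.1 CPM against 253 CPM, and all were at or below the immune level. The 10 vascular and mural genes summed to 81.4 CPM with 2 at 0, and the 10 ependymal genes to 496 CPM against 162 CPM in the immune nuclei, with 2 at or below the immune level. The 14 neuron genes summed to 725 CPM in the astrocyte-like, 659 in the OPC-like, 148 in the immune nuclei and 1919 CPM in the other barcodes, with 1 at 0 and 2 at or below the immune level. Against the OPC-like nuclei 2 of 11 tested neuron genes were higher and 3 lower.

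Against the astrocyte-marker nuclei the genes with the highest ratios included Hmga2, which the rules fix, and Tnc described above. The lysophospholipase Pla1a was at 28.4 against 1.67 CPM, the serotonin receptor gene Htr5b at 31.97 against 2.51 CPM and the lipase Liph at 89.7 against 10.04 CPM. Bcl11b, a factor of cortical and striatal neurons and of T cells, was at 55.5 against 5.86 CPM, and Myt1, a factor of oligodendrocyte precursors and young neurons, at 155 against 25.9 CPM. Gad2, an enzyme of GABA synthesis, was at 199 against 34.3 CPM, but it is one of 4 neuron genes whose UMIs were capped in choosing the astrocyte-marker nuclei and not in choosing the astrocyte-like nuclei, so the choice lowers it in the comparator. Others among the highest were Glt1d1, Sec14l5, Syt6, Megf11, Cxadr and Adamts14, at 28.1, 61.5, 60.5, 199, 28.3 and 78.3 CPM against 0.837, 6.70, 6.70, 31.8, 4.19 and 13.4 CPM. In the OPC-like nuclei Bcl11b, Gad2 and Myt1 were at 28.8, 72.8 and 231 CPM. The start sites of Gad2 had 26.5 CPM of ATAC counts against 7.32 and those of Bcl11b 40.5 against 17.1, both past 2-fold. The start site of Hmga2 was at 45.5 CPM in the astrocyte-like, 37.8 CPM in the OPC-like and 21.97 CPM in the astrocyte-marker nuclei. In the immune nuclei it was at 1.46 CPM.

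Over the other barcodes of the library, 638 of 10872 genes (5.87%) were past 2-fold higher and 1508 (13.9%) lower. All 6 given markers were higher, by 7.04-fold (6.80 to 7.28) for Egfr and 5.50-fold (5.36 to 5.64) for Sulf1. All 12 mature oligodendrocyte genes, 9 of 11 microglia genes and 9 of 12 neuron genes were lower. The microglia list includes the immune genes that the rule capped. Of the start sites, 1.89% of 13039 were higher and 1.14% lower.

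Set beside the astrocyte-marker nuclei of Foxr2 alone, 21% of 11573 genes were past 2-fold higher and 27.6% lower. Genotype and library cannot be told apart here. Scrublet marked 21 of the 157 nuclei of Foxr2 alone (13.4%) as doublets, and the neuron genes summed to 2789 CPM in them, against 725 CPM in the astrocyte-like nuclei. Their part in the result was not tested. All 6 markers were higher, with Egfr at 233 CPM, Rfx4 at 208 CPM and Sulf1 at 12.8 CPM in Foxr2 alone, and Abcc12 at 0 UMIs there, so that it was at least 42.99-fold higher in the astrocyte-like nuclei against a floor of 3 counts over the class. All 15 interferon genes, 7 of 9 cell cycle genes and 6 of 10 hypoxia genes were higher. Against the astrocyte-marker nuclei of Foxr2 p53LOF these counts were 2 of 15, 2 of 9 and 1 of 10, with none lower. Of 14 targets of p53, 7 were lower and 1 higher than in Foxr2 alone (median log2 ratio -0.93, against -0.05 over all genes). Cdkn1a, the cell cycle inhibitor p21, was at 5.65 CPM in the astrocyte-like nuclei and 106 CPM in Foxr2 alone, with 26 CPM in the OPC-like and 8.37 CPM in the astrocyte-marker nuclei of the same library. Against the OPC-like nuclei of the same library 1 of 14 targets was higher and 2 lower. Against the astrocyte-marker nuclei of that library 2 of 14 were higher and 1 lower. Fas, a death receptor and p53 target, was at 69.7 CPM in the astrocyte-like nuclei and 11.5 CPM in Foxr2 alone, the opposite order.

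RNA and chromatin mostly differed in the same direction, although few start sites passed 2-fold. Of the 897 genes higher in RNA than in the OPC-like nuclei, 630 had start sites with enough ATAC counts. Of these, 116 (18.4%) were past 2-fold higher and 1 lower, with a median log2 ratio of 0.42, and 90.5% had a ratio above 0, against 61.9% of all start sites tested. Of the 773 lower genes 602 could be compared, with 79 (13.1%) lower, 1 higher and a median of -0.40. Relative to the astrocyte-marker nuclei 59 of 428 start sites (13.8%) of the higher genes were higher and 126 of 632 (19.9%) of the lower genes were lower. Against the other barcodes the numbers were 105 of 486 (21.6%) and 87 of 735 (11.8%). Genes are not independent replicates, and these shares describe 1 library.

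**Figure D3:**
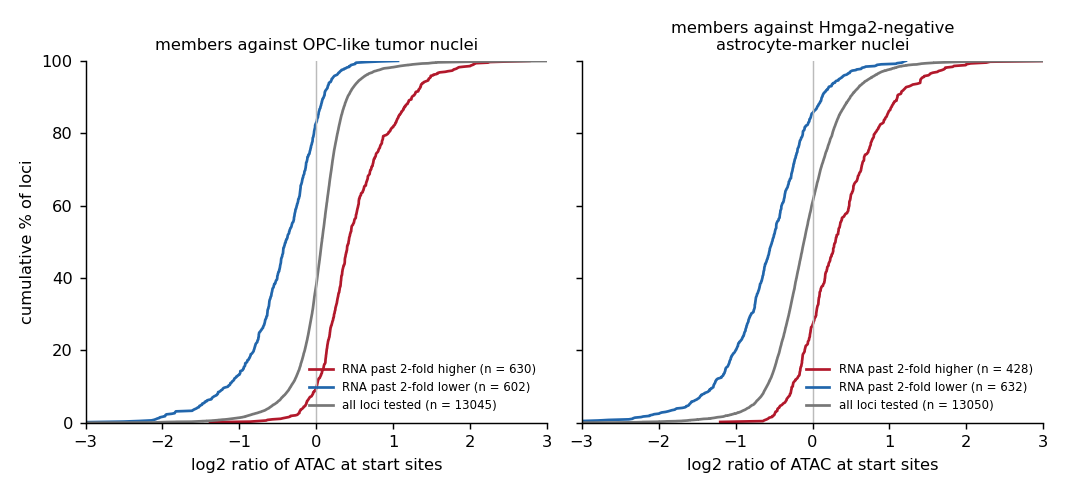
Cumulative percent of gene loci by the log2 ratio of their start-site ATAC counts, for genes past 2-fold higher in RNA, past 2-fold lower and all tested, against the OPC-like and the astrocyte-marker nuclei. The curve of the RNA-higher genes lies to the right of that of all loci and the curve of the RNA-lower genes to its left, with medians of 0.42 and -0.40 in the first comparison.

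The peaks that set the astrocyte-like and OPC-like nuclei apart lay away from start sites. Of the peaks past 2-fold higher and lower, 7.83% and 7.81% were within 1 kb of a start site, against 37.99% of all 34218 tested, and 52.7% and 53.95% were in introns, against 39%. At the higher peaks the median was 15.5 CPM in the astrocyte-like, 4.45 CPM in the OPC-like and 13.8 CPM in the astrocyte-marker nuclei. At the lower peaks it was 4.15, 14.01 and 1.63 CPM. The OPC-like counts chose both sets.

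Short motifs were searched on both strands in the middle 300 bases of the peaks more than 1 kb from a start site. The NFI motif TTGGCA was in 41.03% of 3953 higher, 14.3% of 3908 lower and 23.9% of all 21216 such peaks tested against the OPC-like nuclei. The SOX motif ACAATG had the other order, at 17.1%, 29.1% and 19.6%, as did the AP-1 motif TGANTCA at 17.4%, 41.7% and 30.3%, and the E-box CAGCTG at 29.1%, 38.02% and 31.6%. The RFX motif was rare, at 1.42%, 0.537% and 0.844%. Against the astrocyte-marker nuclei the NFI motif was in 28.1% of 3560 higher, 30.5% of 3004 lower and 27.7% of 19169 tested peaks. AP-1 was in 42.6%, 8.89% and 22.7%. The median GC content of the sets was between 50% and 52.7%. A match describes letters in a window and is not a binding site. The RNA of 3 genes for AP-1 subunits, picked after the motif counts were seen, is given as values only, and other AP-1 genes are not reported here. Fos was at 66.01 CPM in the astrocyte-like, 121 in the OPC-like and 88.7 in the astrocyte-marker nuclei, Jun at 83.2, 135 and 69.5 CPM and Fosl1 at 5.93, 20.8 and 0.837 CPM. Fos and Jun were within 2-fold in both comparisons.

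**Figure D4:**
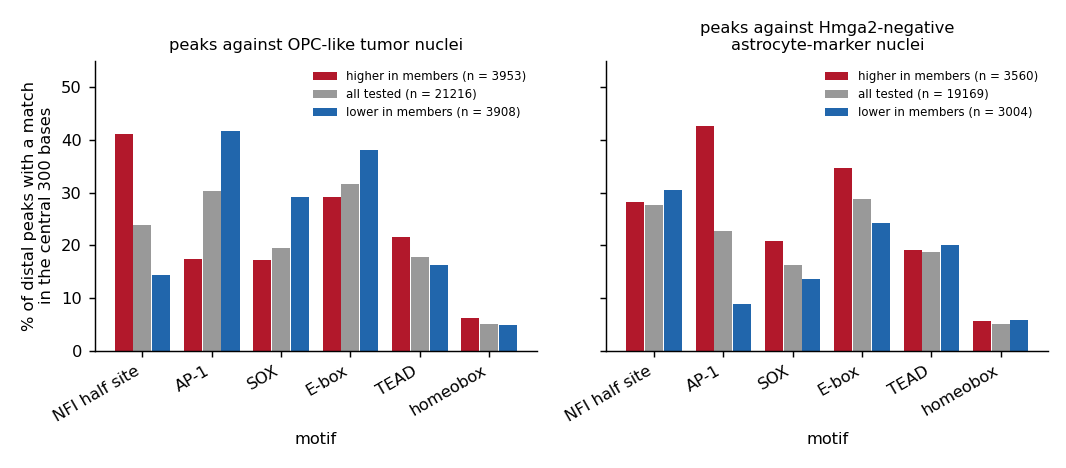
Percent of peaks more than 1 kb from a start site that hold each of 6 motifs in their middle 300 bases (axis from 0), for peaks past 2-fold higher, all tested and past 2-fold lower in the astrocyte-like nuclei, against the OPC-like and the astrocyte-marker nuclei. In the first comparison the NFI motif is more frequent in the higher than in the lower peaks (41.03% and 14.3%) and AP-1 less frequent (17.4% and 41.7%), and in the second AP-1 is more frequent (42.6% and 8.89%).

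The peaks with the highest and the lowest ratio against the astrocyte-marker nuclei follow in the same form, with matches to the AP-1 motif and the NFI motif in capitals.

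Peak open in both tumor classes, chr17:47842171-47842470: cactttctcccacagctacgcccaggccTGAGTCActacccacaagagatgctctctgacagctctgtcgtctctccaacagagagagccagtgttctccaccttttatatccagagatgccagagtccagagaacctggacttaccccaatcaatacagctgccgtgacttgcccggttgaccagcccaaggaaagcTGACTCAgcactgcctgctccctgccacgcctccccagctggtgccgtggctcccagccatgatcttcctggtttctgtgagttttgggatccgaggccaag

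Peak closed in both tumor classes, chr3:130649586-130649885: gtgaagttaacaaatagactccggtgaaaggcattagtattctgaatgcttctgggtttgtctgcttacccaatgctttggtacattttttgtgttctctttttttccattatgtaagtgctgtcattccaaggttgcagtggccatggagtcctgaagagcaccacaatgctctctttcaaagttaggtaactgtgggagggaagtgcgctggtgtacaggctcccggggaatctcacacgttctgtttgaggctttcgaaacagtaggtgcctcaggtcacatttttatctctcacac

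The first, between genes and 7630 bases from the start site of Mdfi, held 183 counts (25.3 CPM) in the astrocyte-like, 170 (22.3 CPM) in the OPC-like and 0 in the astrocyte-marker nuclei, at least 10.4-fold higher against a floor of 3 counts over the class. The immune nuclei had 6.23 CPM and the other barcodes 12.4 CPM at this peak, so it was not confined to the tumor classes. The peak holds 2 matches to AP-1. The second lies 32043 bases from the start site of Etnppl, the astrocyte enzyme whose RNA was low in the tumor classes. It held 0 counts in the astrocyte-like and OPC-like nuclei and 36 (29.3 CPM) in the astrocyte-marker nuclei, at least 70.7-fold lower in the astrocyte-like nuclei against the same floor.

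Sequences of the electroporated vectors, which the rule did not use, were found in the astrocyte-like nuclei. ATAC counts on the 2 vector peaks were found in 180 of 609 nuclei, 29.6% (exact binomial interval 25.96 to 33.4%). The share was 28.7% in the OPC-like, 15.8% in the astrocyte-marker, 0.586% in the immune nuclei and 9.16% over the other barcodes. As CPM the vector ATAC counts were 60.4, 42.7, 48.01, 2.69 and 26.8 in that order, a ratio of 1.41 (1.22 to 1.64) over the OPC-like and 22.5 (14.7 to 36.3) over the immune nuclei. GFP RNA was at 519 CPM in the astrocyte-like, 659.8 in the OPC-like, 579 in the astrocyte-marker and 175 in the immune nuclei. Akaluc was at 327, 352, 302 and 54.9 CPM and Foxr2 at 71.5, 74.9, 81.2 and 23.2 CPM. Over the other barcodes, which include the OPC-like nuclei, GFP was at 384, Akaluc at 188 and Foxr2 at 45.5 CPM. The GFP ratio over them was 1.35 (1.31 to 1.40). The immune levels stand in for the background of free vector RNA. The immune nuclei were chosen with 0 UMIs of Hmga2 and were shallower, and the free level in the other classes was not measured. The astrocyte-marker nuclei had vector RNA within 2-fold of the astrocyte-like nuclei, and a lower share of nuclei with vector ATAC at a lower depth.

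The share of ATAC counts on single chromosomes differed between the tumor classes and among the astrocyte-like nuclei. Chromosome 7 held 6.88% of the counts in the astrocyte-like and 6.16% in the OPC-like nuclei, a ratio of 1.12 (1.11 to 1.12), with 6.996% in the astrocyte-marker nuclei. Chromosome 5 held 6.11% and 6.55%, a ratio of 0.934 (0.930 to 0.938). Chromosome 14 held 3.53% and 3.24%, a ratio of 1.09 (1.09 to 1.10). Among 517 astrocyte-like nuclei with at least 2000 ATAC counts, 48 (9.28%, 6.92 to 12.1%) had a chromosome 5 share under 70% of the class median, and 31 (5.996%, 4.11 to 8.40%) a chromosome 8 share under that limit, with 4 in both. The low nuclei had a median of 3.41% of ATAC counts on chromosome 5, against 6.24% in the class. Their RNA, which did not choose them, was low on the same chromosome, with a mean of 3.25% of UMIs against 5.62% in the rest. For chromosome 8 the ATAC medians were 2.95% and 5.44%, and the RNA means 2.18% and 3.97%. By the same limit, 4.83% of the OPC-like, 3.62% of the astrocyte-marker and 1.24% of the immune nuclei were low on chromosome 5, and 2.84%, 5.07% and 0.619% on chromosome 8. Of 352 OPC-like nuclei, 52 were low on chromosome 7 (14.8%) and 44 on chromosome 14, with 29 in both, where 1 (0.193%) and 4 (0.774%) of 517 astrocyte-like nuclei were. Only low shares were counted here. Some astrocyte-like nuclei had high shares, such as 10.3% of ATAC counts and 10.2% of UMIs on chromosome 5.

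**Figure D5:**
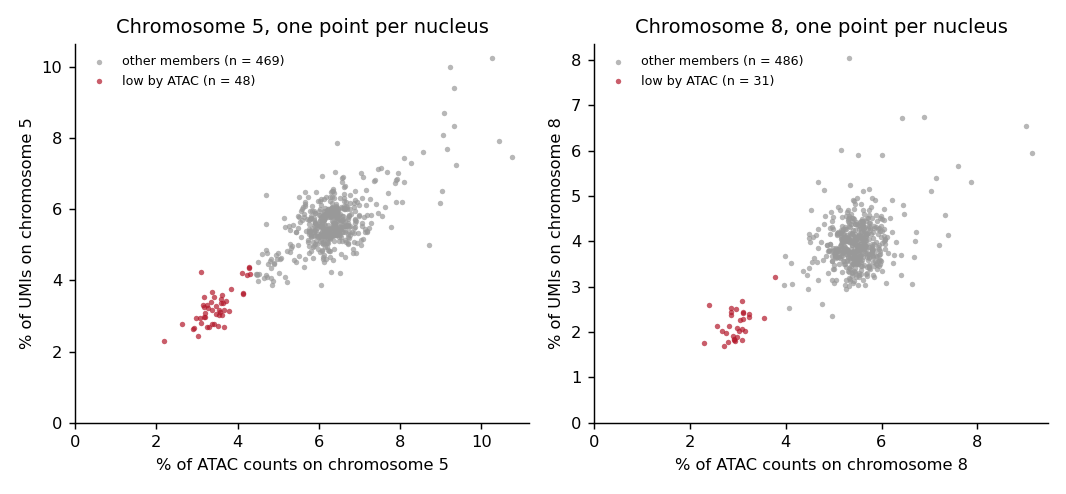
Percent of the ATAC counts of a nucleus on chromosome 5 (left) and chromosome 8 (right) against the percent of its UMIs there, for 517 astrocyte-like nuclei with at least 2000 ATAC counts, with those under 70% of the class median in colour. The 48 and 31 low nuclei have low ATAC shares by choice and also low RNA shares, with means of 3.25% and 2.18% of UMIs.

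The RNA of the 31 nuclei low on chromosome 8 differed from that of the rest in some markers. Abcc12, which lies on chromosome 8, was at 41.7 CPM in them and 166 CPM in the nuclei low on neither chromosome. Slc1a3 was at 2478 and 1514 CPM, Aqp4 at 596 and 266 CPM and Egfr at 983 and 722 CPM. In the 48 nuclei low on chromosome 5 Egfr was at 1112 CPM and Abcc12 at 121 CPM. Vector ATAC was present in 29.03% of the nuclei low on chromosome 8, 22.9% of those low on chromosome 5 and 35.1% of the rest. Of the nuclei low on chromosome 8, 96.8% were in cluster 3 of the clustering described next, against 79.2% of those low on chromosome 5 and 66.5% of the rest, and the part of this in the marker levels was not tested. Whether DNA copies were lost was not tested.

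The astrocyte-like nuclei were not uniform. Leiden clustering of the library, run without the genes of the rule and the lists, gave 18 clusters, of which cluster 3 held 68.8% of the 609 nuclei, cluster 7 held 20.03%, cluster 10 held 4.27% and cluster 6 held 3.12%. Cluster 7 was led by Igfbpl1, Ptx3, Crispld2 and Lcn2. Cluster 10 was led by Chrna5, Pax3, Ebf2 and Mmp12, which was also the first gene of cluster 4, and cluster 6 by Clec9a, a receptor of dendritic cells, Zfp366 and Wdfy4. The OPC-like nuclei lay mostly in cluster 2 (84.1%) and the astrocyte-marker nuclei in clusters 12 (59.3%) and 3 (25.4%). The 419 astrocyte-like nuclei in cluster 3 had 1046 CPM of Egfr and 345 CPM of Dbx2, against 290.1 and 98.9 CPM in the 122 in cluster 7. Grm5 was at 2901 and 777 CPM. Gfap had the other order, at 398 and 831 CPM, as had Sox9 at 59.8 and 167 CPM and the hypoxia-induced growth factor Vegfa at 17.7 and 108 CPM. Rfx4 (1189 and 838 CPM), Abcc12 (189 and 201 CPM) and Six3os1 (303 and 278 CPM) were closer. The RNA of these nuclei made the clusters, so these levels are descriptions.

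In the ATAC counts the 2 clusters were at 27.1 and 20.3 CPM at the start site of Egfr, 30.8 and 10.9 CPM at Dbx2, 33.8 and 8.70 CPM at Grm5, 37.5 and 13.8 CPM at Abcc12 and 5.64 and 17.4 CPM at Gja1. Vector ATAC was found in 30.3% and 30.3% of their nuclei. The median UMIs were 8644 and 10050 and the median ATAC counts 10568 and 7756. Scrublet marked 1.67% of the astrocyte-like nuclei in cluster 3 and 0 in cluster 7 as doublets, so that most of the 38 lay in the other clusters. Clusters 6 and 10 are among these, and their nuclei stayed in the class sums.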

How the data were processed

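Nuclei of frozen tumor tissue were profiled for RNA and ATAC together in 1 Foxr2 p53LOF and 2 Foxr2 alone libraries. The authors ran Cell Ranger ARC 2.0.0 on mm10 with the vectors added, and deposited filtered matrices of raw counts, UMIs for 32285 genes and 13 vector features and ATAC counts for 112924 peaks in the Foxr2 p53LOF library, called by the authors over that whole library. Foxr2 alone replicate 2 entered only by its barcodes.

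The members, gene lists and comparisons were chosen with earlier results of these data known. Counts were summed over each class and divided by the class total (CPM). A difference was called past 2-fold on CPM + 1 for features with at least 10 CPM (genes and peaks) or 20 CPM (start sites) in either class, so a list count leans toward the class through which a low gene passed the minimum. Poisson intervals were used for levels, conditional binomial intervals for ratios and Clopper-Pearson intervals for shares (95%), all covering counting error only. The floor for a class at 0 was 3 counts.

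Astrocyte-marker nuclei had Hmga2 at 0, under 0.2% immune genes, at most 1 UMI of Mki67 and Top2a, and no more UMIs of Rbfox3, Slc17a6, Gad1 and Gad2, or of Mog, Mag and Ermn, than of Aqp4, Gja1, Ntsr2 and Slc7a10. Immune nuclei had Hmga2 at 0 and at least 0.5% immune genes. Nuclei were thinned to 1000 UMIs (seed 1) for shares. The gene intervals in the deposited feature list proved to span start sites only, so peaks within 2 kb of these replaced the planned gene bodies, which became an alternative.

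Named genes were the 15 highest and 10 lowest ratios in a comparison with at least 20 CPM in the higher class, leaving out unnamed, mitochondrial and ribosomal genes, and the rule, marker and list genes with at least 10 CPM. Clustering (scanpy 1.11.5, leidenalg 0.10.2, 2000 variable genes, 30 components, 20 neighbours, resolution 0.5, seed 100) left out the rule and list genes. Doublets were marked with Scrublet in scanpy at an expected 8% and kept. The steps were tested on simulated data. Python 3.11.15, numpy 2.4.6, scipy 1.17.1, pandas 2.3.3, anndata 0.12.19 and matplotlib 3.10.9 were used. Alternatives changed the Hmga2, marker, immune, cycling, UMI and quality limits, doublets, pseudocount, minimum, weighting of nuclei, locus interval and comparator. Some named genes are not reported here.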

Additional observations from a re-analysis of the deposited data

How the results depend on the processing

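The library holds no replicate, so nothing here measures the spread between animals, and only the depth of each class limits the intervals. No paired analysis was possible because no result comes from a test between replicated groups. The number of astrocyte-like nuclei was between 533 and 827 under the other limits of the rule. As reported, 1670, 1449 and 2146 genes passed 2-fold in RNA against the OPC-like, the astrocyte-marker and the other nuclei, 411 and 647 start sites against the first and the second, and 8528 peaks against the OPC-like nuclei. Under the alternatives 115 recomputed main values stayed within their counting interval or within 1.5 times of the reported count, and 19 moved. Without a minimum level the counts were 3150 genes against the astrocyte-marker nuclei, 3323 against the other barcodes, 1608 start sites (683 higher, 925 lower) against the OPC-like and 2735 (1915 higher, 820 lower) against the astrocyte-marker nuclei, and 26255 peaks. At 2 times the minimum 119 and 222 start sites (68 higher, 154 lower in the second) and 2007 peaks (1263 higher, 744 lower) remained past 2-fold, where fewer features are tested. With a pseudocount of 5 CPM there were 407 start sites against the astrocyte-marker nuclei and 5120 peaks. With the mean of per-nucleus CPM there were 2217 genes and 2002 start sites against the astrocyte-marker nuclei and 912 start sites against the OPC-like nuclei. Without the cap on Mki67 and Top2a, there were 236 and 385 start sites, and cluster 3 held 64.7% of the nuclei in place of 68.8%. With Hmga2 of at least 1 UMI the chromosome 7 ratio was 1.11 in place of 1.12.

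After seeing the data, gene bodies were tried in place of start sites, which gave 714 loci (330 higher, 384 lower) against the OPC-like nuclei and 543 higher and 380 lower against the astrocyte-marker nuclei. Also added then, the astrocyte-marker nuclei of Foxr2 alone as comparator gave 5626 genes in RNA. With that comparator the log2 ratios of Gfap and Sox9 were 0.25 and 0.094 in place of -1.09 and -1.12. The cause was not tested in any of these. Of the values of single genes, 649 stayed within their interval, 90 moved and 2 were reversed.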
